A study of Mus musculus with 16 samples.

Results

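The 8 ascending aorta arrays of the study, 4 from Eln+/- mice and 4 from Eln+/+ mice, were compared with each other. They were taken by the tissue and genotype given in their titles, out of 16 arrays in all; the other 8 are of aortic valve in the same genotypes. The mice were 30 days old. Per the labels, RNA of each specimen was used on its own, 1 to 20 ng of it was amplified, and nothing was pooled, so that each array stands for 1 specimen and the p-values measure the spread between specimens. The labels do not give the construction of the mutant Eln allele, the strain or the sex of the mice.

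Elastin, the product of Eln, forms the core of the elastic fibres that let the wall of a large artery stretch and recoil with each heartbeat. Smooth muscle cells of the aortic media secrete it around birth and in early postnatal life onto microfibrils, with fibulins as adaptors, and lysyl oxidases, which need copper, cross-link it into insoluble lamellae. Mice with a single working copy of Eln are a model of the arterial disease that follows loss of an elastin allele in people, with stiffer arteries and more, thinner lamellae.

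Each value below is the log2 of a deposited ratio, in which the median of all 16 arrays serves as the denominator, so values compare arrays for the same probe set and say nothing of how abundant a transcript is. In bulk tissue, fewer cells of a type and less RNA per cell cannot be told apart. A gene is shown by its probe set of highest standard deviation over the 16 arrays, and where it has others they are given for the genes the results turn on. Differences are Eln+/- minus Eln+/+ with the standard error (SE) of the limma fit, and groups are called separate where their 4 and 4 values do not overlap.

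No transcript of the aorta passed the threshold between the genotypes. In limma with Benjamini-Hochberg adjustment, 0 of 45037 probe sets (0.0%) and 0 of the 18193 genes they represent had an adjusted p under 0.05, and the smallest adjusted p was 0.751. Without adjustment, 2480 probe sets (5.51%) and 1033 genes (5.68%) had a p under 0.05, 600 genes higher (3.3%) and 433 lower (2.38%) in Eln+/-. The 4 Eln+/- values lay wholly above the 4 Eln+/+ values in 250 genes (1.37%) and wholly below in 256 (1.41%), 506 in all (2.78%). The mean was higher in Eln+/- for 8606 genes (47.3%), the median difference over all genes was -0.016, and the 5th and 95th percentiles were -0.41 and 0.53. With 4 arrays a group the median SE of a difference was 0.22. The single-gene values that follow are therefore differences that did not pass, and the share of separate genes just given is the background against which members of a family are counted.

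Both groups differed in more than their Eln genotype. Xist, the RNA that silences 1 X chromosome in female cells, was high on all 4 Eln+/- arrays (-0.06 to 0.21) and on Eln+/+ array 4 (0.10), and at the floor of the table (-6.64) on Eln+/+ arrays 1, 2 and 3. The Y-linked genes went the other way: Eif2s3y lay between 4.63 and 4.82 on those 3 arrays and between -0.29 and 0.32 on the other 5, and Kdm5d and Uty split the arrays in the same manner. By these genes the comparison sets 4 female mice against 1 female and 3 male mice, so genotype and sex cannot be told apart in it. Eln+/- array 2 also stood apart, with a median correlation of 0.24 with the other aorta arrays against 0.36 to 0.52 for each of the others. For these reasons the values of each array are given, and those of Eln+/+ array 4, the only Eln+/+ array with high Xist, can be read beside the rest.

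Eln itself, the targeted gene, was lower on average in Eln+/- aorta at both of its probe sets. Neither difference had an adjusted p under 0.05 in limma, and an exact permutation test of Eln alone is given below. At the probe set shown the Eln+/- arrays 1 to 4 stood at 0.00, -0.64, 0.13 and 0.04 and the Eln+/+ arrays at 0.42, 0.48, 0.05 and 0.27. The groups overlapped, since Eln+/- array 3 lay above Eln+/+ array 3, and the lowest value by far was that of Eln+/- array 2. The difference was -0.42 ± 0.34 (SE), a ratio of 0.747, with a 95% interval of -1.14 to 0.30 and an adjusted p of 0.90 in limma. At its other probe set the Eln+/- arrays stood at 0.02, -0.21, 0.04 and -0.02 and the Eln+/+ arrays at 0.27, 0.22, 0.11 and 0.08. Here all 4 Eln+/- arrays lay below all 4 Eln+/+ arrays. The difference was -0.22 ± 0.22 (SE), a ratio of 0.861 with a 95% interval of 0.624 to 1.19. A change of -1, which 1 copy in place of a pair would give, lay inside the interval of the first probe set. It lay outside that of the second (-0.68 to 0.25). The fit took its spread from the valve arrays too, where the first probe set ran from -2.62 to -0.81 in Eln+/-. In limma on the aorta arrays alone the unadjusted p was 0.061 for the first probe set, against 0.234 in the main fit. For the second it was 0.13 against 0.342, and the adjusted p was 0.94 for both. Whether -1 lies inside an interval from the aorta arrays alone was not tested. The exact two-sided permutation test gave p = 0.0571 for the first probe set and p = 0.0286 for the second, and 0.0286 is the smallest p that the 70 assignments of 4 against 4 arrays allow. Without Eln+/- array 2 the differences were -0.25 and -0.16. In the valve the same probe sets differed by -1.27 and -0.61, and the aorta effect minus the valve effect was 0.85 ± 0.48 (SE) for the first, with an adjusted p of 0.687 in limma, so the tissues were not shown to differ.

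**Figure D1:**
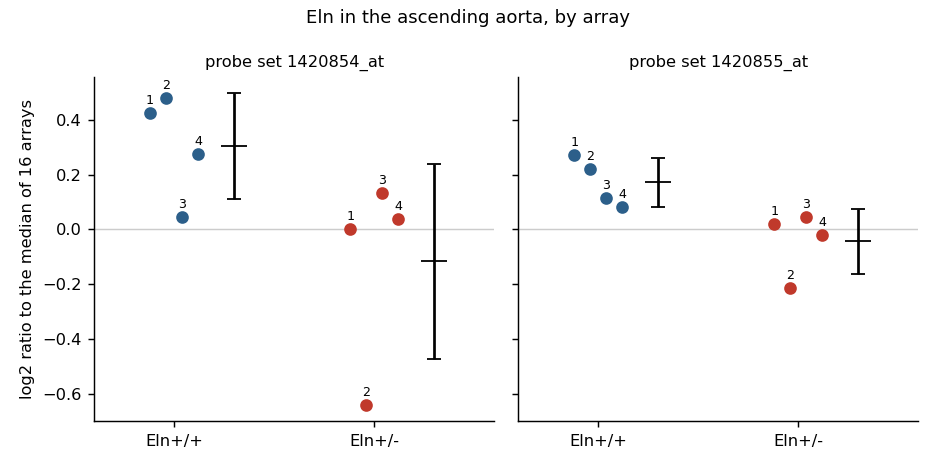
Log2 ratio of both Eln probe sets on each aorta array, with array numbers beside the points and the mean ± SD (n = 4) of each group to their right. At the probe set shown for the gene Eln+/- array 2 lies at -0.64, away from the other 3 Eln+/- arrays, and at the other every Eln+/- array lies below every Eln+/+ array.

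Genes beside Eln were looked at because Eln lies in a block that is deleted as a whole in people with Williams syndrome, and which in the mouse is on chromosome 5. Of the 15 genes on each side of Eln in RefSeq order, 27 were measured, 10 higher and 17 lower in Eln+/-, with a median of -0.14. Over all genes 47.3% were higher, with a median of -0.016. In 2 of the 27 the groups did not overlap, against 2.78% of all genes. Both were lower and lie 9 and 10 genes from Eln. Dnajc30, which encodes a mitochondrial chaperone, stood at -0.33, -0.96, -0.38 and -0.51 in Eln+/- and at -0.27, 0.12, 0.08 and 0.07 in Eln+/+, a difference of -0.54 ± 0.16 (SE). Vps37d, named because of this count and after its value was seen, differed by -0.26 ± 0.15 (SE), with an unadjusted p of 0.108 in limma. The nearest neighbour, the actin regulator kinase gene Limk1, was at -0.03 ± 0.25 (SE), and Eif4h, a translation initiation factor gene, at 0.48 ± 0.24 (SE), with its other 5 probe sets between -0.24 and 0.08. Gtf2ird1, a transcription factor gene 7 genes away, was at -0.64 ± 0.28 (SE) by the probe set shown and at 0.19 by its other.

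The genes that build and cross-link the elastic fibre showed no common direction in the aorta. Of 21 measured elastic fibre and microfibril genes, Eln among them, 9 were higher and 12 lower (median -0.02) and differences from -0.49 to 0.46, and 0 had separate groups. The fibulin adaptor gene Fbln5 was at -0.02 ± 0.46 (SE), Fbln2 at -0.07 ± 0.28, the microfibril gene Mfap4 at 0.01 ± 0.18 and Ltbp4, which guides elastin deposition, at -0.11 ± 0.20. Emilin1, a glycoprotein of the elastin and microfibril interface, was at -0.34 ± 0.27, with Eln+/- array 2 at -1.20 and the other 3 between 0.00 and 0.22. The extremes of the list were Fbln1 at -0.49 ± 0.26, whose other 2 probe sets were at 0.39 and -0.11 (mean over its probe sets -0.0709), and the microfibril-binding gene Adamtsl2 at 0.46 ± 0.22. The unadjusted p of limma was under 0.05 for 0 of the 21 genes (background 5.68%), and 0 had an adjusted p under 0.05.

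Among 16 cross-linking and collagen-modifying enzyme genes 9 were higher and 7 lower (median 0.02). Lox, the main lysyl oxidase of the aorta, stood at 0.44, 1.18, 0.49 and 1.00 in Eln+/- and at 0.49, 0.51, 0.13 and 0.57 in Eln+/+. Eln+/- arrays 2 and 4 were the highest, and arrays 1 and 3 lay within the Eln+/+ range. The difference was 0.35 ± 0.33 (SE), with a 95% interval of -0.35 to 1.05, and the other 2 probe sets of Lox were also higher, at 0.12 and 0.21. Loxl1 was at -0.21 ± 0.20, Loxl3 at 0.02 ± 0.25 and the transglutaminase gene Tgm2 at 0.15 ± 0.20. P4ha3, a collagen prolyl hydroxylase subunit gene with 1 probe set, was the 1 member with separate groups: -0.32, -0.33, -0.13 and 0.18 in Eln+/- against -0.72, -0.51, -1.31 and -1.51 in Eln+/+, a difference of 0.86 ± 0.23 (SE), ratio 1.81.

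Copper and iron handling genes held the largest single difference of the 29 function lists. Cp encodes ceruloplasmin, the copper-carrying ferroxidase of plasma and tissues. At the probe set shown the Eln+/- arrays stood at -0.07, 0.19, -0.05 and -0.22, close together, and the Eln+/+ arrays at -3.26, -2.41, -1.90 and -1.21. The groups were far apart, and Eln+/+ array 4, the array with high Xist, was the highest of its group. The difference was 2.16 ± 0.43 (SE), a ratio of 4.47, with an adjusted p of 0.793 in limma. Between the arrays with high Xist alone, 4 against 1, it was 1.18. Cp has 7 other probe sets, and 5 were higher by 0.32 to 0.89 and 2 lower, at -0.13 and -0.17, none with separate groups; the mean over all 8 differed by 0.62. The size of the Cp difference thus rested on 1 probe set, while its direction was shared by 6 of 8. Over the 28 genes of the list, 18 were higher and 10 lower (median 0.09). Atp7a, the copper pump that loads lysyl oxidase, was at 0.05 ± 0.29, and Sod3, the extracellular copper superoxide dismutase gene, at -0.11 ± 0.28. Sod1 was separate at the probe set shown, 0.81 ± 0.22, but its other 4 probe sets lay between -0.17 and 0.23.

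The 250 bases before the annotated start of 3 genes with separate groups are shown, as RefSeq gives them on GRCm38.p6, on the strand of the gene, because these genes are the largest difference of the function lists (Cp) and the receptor and feedback gene of the pathways described further on (Notch3 and Axin2). They are chr3:19956804-19957053 on the plus strand for Cp (the first of 2 starts listed), chr17:32166891-32167140 on the minus strand for Notch3 and chr11:108920099-108920348 on the plus strand for Axin2. Capitals mark matches, on either strand, to any of 4 short motifs. The GC box, bound by Sp1 and its relatives, is GGGCGG. The box that binds TATA-binding protein was searched as TATAAA. The core that the Notch effector RBPJ binds was searched as TGGGAA. The core that the Wnt effectors of the TCF and LEF family bind was searched as CTTTGA. None of these overlaps another in the windows shown.
Cp: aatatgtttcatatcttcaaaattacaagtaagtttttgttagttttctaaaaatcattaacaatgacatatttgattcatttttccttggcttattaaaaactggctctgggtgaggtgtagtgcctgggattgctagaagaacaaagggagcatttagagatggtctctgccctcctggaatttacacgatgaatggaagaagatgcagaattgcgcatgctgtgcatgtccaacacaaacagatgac
Notch3: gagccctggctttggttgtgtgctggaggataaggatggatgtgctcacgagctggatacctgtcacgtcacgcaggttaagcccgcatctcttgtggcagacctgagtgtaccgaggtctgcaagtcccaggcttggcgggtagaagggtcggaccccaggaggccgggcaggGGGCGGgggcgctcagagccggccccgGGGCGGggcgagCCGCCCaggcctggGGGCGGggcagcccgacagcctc
Axin2: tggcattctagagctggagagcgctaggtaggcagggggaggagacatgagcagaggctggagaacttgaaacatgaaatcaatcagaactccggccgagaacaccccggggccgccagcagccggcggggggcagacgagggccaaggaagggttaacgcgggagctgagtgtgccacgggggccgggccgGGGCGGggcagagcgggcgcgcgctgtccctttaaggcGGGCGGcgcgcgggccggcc
The Notch3 window holds 4 GC boxes, the nearest 23 bases and the farthest 76 bases before the start, the Axin2 window 2, at 58 and 20 bases, and the Cp window none of the motifs searched. No match to the RBPJ, TCF/LEF or TATA letters lies in these 3 windows, which says only that these letters are not in them. Among 32851 windows of the same length in the RefSeq table, 32.7% hold a GC box, 12.4% a TATA box, 21.6% the RBPJ letters and 13.8% the TCF/LEF letters. The GC content is 37.2% for Cp, 68.8% for Notch3 and 69.2% for Axin2, against a median of 52.4%. The arrays measured RNA and not binding, so these are descriptions of the sequence.

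**Figure D2:**
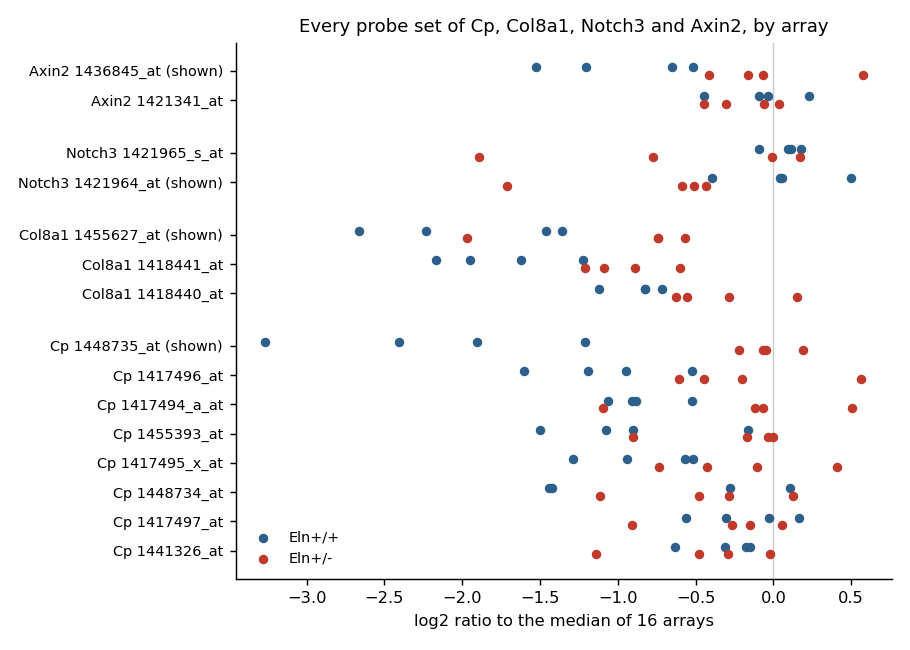
Log2 ratio on each aorta array at every probe set of Cp, Col8a1, Notch3 and Axin2, with the probe set shown for the gene marked. The Cp groups are separate at 1 of 8 probe sets, while all 3 Col8a1 probe sets and both Notch3 probe sets have means on the same side.

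The fibrillar collagens of the wall showed no common direction. Of 21 fibrillar and associated collagen genes 11 were higher and 10 lower (median 0.01). The main fibrillar genes Col1a1, at -0.13 ± 0.16 (SE), Col3a1, at 0.01 ± 0.20, and Col5a1, at -0.31 ± 0.21, all overlapped. Col8a1 encodes a short-chain network collagen that smooth muscle cells make when they migrate or remodel. At the probe set shown it stood at -0.74, -0.74, -0.57 and -1.97 in Eln+/- and at -2.23, -1.36, -1.46 and -2.66 in Eln+/+. Array 4 was the lowest of its group in both genotypes, and through it the groups overlapped. The difference was 0.92 ± 0.36 (SE), ratio 1.9, with an adjusted p of 0.885 in limma. At its other 2 probe sets the groups were separate, with differences of 0.54 and 0.79. Between the arrays with high Xist the difference at the probe set shown was 1.66.

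Basement membrane genes surround each smooth muscle cell and underlie the endothelium. Of 21 such genes 10 were higher and 11 lower (median -0.02) and 0 separate. The type IV collagen genes Col4a1 and Col4a2 were at -0.19 ± 0.25 (SE) and -0.43 ± 0.31, and the laminin gene Lamb2 at 0.12 ± 0.38. In each of the 3 genes Eln+/- array 2 was the lowest array, at -1.02, -1.55 and -1.05.

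Among the matrix proteins that signal to cells and the enzymes that cut matrix, 1 of 20 and 1 of 35 genes were separate, where 2.78% of all genes were. Ccn4, a secreted protein gene that Wnt signalling is known to induce, stood at 1.06, 0.94, 0.42 and 1.20 in Eln+/- and at -0.23, -0.51, 0.39 and -0.12 in Eln+/+. The margin between the groups was narrow, 0.42 on Eln+/- array 3 against 0.39 on Eln+/+ array 3. The difference was 1.02 ± 0.31 (SE), ratio 2.03, and its other probe set differed by 0.41. Of the 20 matricellular genes 11 were higher and 9 lower (median 0.03) and 1 separate. The tenascin gene Tnxb was at -0.62 ± 0.22, Mgp, an inhibitor of arterial calcification, at 0.31 ± 0.14 and Ccn2, a connective tissue growth factor gene, at -0.01 ± 0.22.

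Of 27 proteoglycan and hyaluronan genes 13 were higher and 14 lower (median -0.01). Has2, the hyaluronan synthase gene, was at -0.68 ± 0.28 (SE), with -0.85, -0.42, -1.33 and -1.38 in Eln+/- against -0.38, 0.00, -0.87 and 0.00 in Eln+/+, groups that overlapped. Its other probe set was at -0.28. Ogn, a small leucine-rich proteoglycan gene, had separate groups at 0.38 ± 0.23, with Eln+/- array 2 at 0.98 and the other 3 Eln+/- arrays between 0.14 and 0.20. Biglycan, Bgn, was at -0.04 ± 0.19 and versican, Vcan, at -0.02 ± 0.40.

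The 35 matrix and elastin-degrading proteases and inhibitors had 18 higher and 17 lower (median 0.01). The elastase genes Mmp2, Mmp9 and Mmp12 were at 0.19 ± 0.19 (SE), -0.00 ± 0.24 and 0.20 ± 0.37, and the inhibitor genes Timp1 and Timp3 at 0.21 ± 0.25 and -0.08 ± 0.18. Adamts5, an aggrecan- and versican-cutting protease gene, was the 1 separate member: 0.30, 1.76, 0.38 and 0.26 in Eln+/- against 0.04, -0.04, -0.46 and -0.11 in Eln+/+. The difference was 0.82 ± 0.33 (SE), and 0.46 without Eln+/- array 2. Its other 3 probe sets were higher too, by 0.26 to 0.38, with overlap.

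Smooth muscle contractile genes were mostly lower in Eln+/- by count, and this count rested on 1 array. Of 26 measured genes 5 were higher and 21 lower (median -0.18), against 47.3% of all genes higher and a median of -0.016; none was separate and none had an unadjusted p under 0.05. The mean of the list stood at 0.22, -0.75, 0.20 and 0.30 on the Eln+/- arrays and at 0.28, 0.23, 0.26 and -0.01 on the Eln+/+ arrays. Eln+/- array 2 was alone at the bottom, and the other 3 Eln+/- arrays lay within the Eln+/+ range or just above it. Without that array 17 of the 26 were higher and 9 lower (median 0.03). The smooth muscle actin gene Acta2 was at 0.00 ± 0.52 (SE) at the probe set shown and at -0.05 and -0.10 at its other probe sets, the smooth muscle myosin gene Myh11 at -0.38 ± 0.31, Tagln at -0.04 ± 0.30 and the calponin gene Cnn1 at -0.20 ± 0.39. Des, the desmin gene, was the lowest at -0.63 ± 0.33.

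The 28 smooth muscle transcription regulators had 13 higher and 15 lower (median -0.03). Myocd, the master coactivator of the contractile programme, was at -0.03 ± 0.25 (SE), its partner Srf at -0.30 ± 0.20 and the mechanosensitive coactivator gene Yap1 at 0.38 ± 0.18. Ion channel genes of vascular smooth muscle had 15 of 36 higher, a median of -0.06 and 1 separate member (2.78%, as among all genes). That member, Panx1, encodes a membrane channel that releases ATP, and it stood at -0.07, -0.01, 0.07 and -0.18 in Eln+/- and at -0.74, -0.61, -0.57 and -0.64 in Eln+/+. Eln+/+ array 4 lay among the other Eln+/+ arrays here, and the difference was 0.59 ± 0.13 (SE), ratio 1.51, with 0.59 between the arrays with high Xist. The potassium channel genes Kcnma1 and Kcna5 were at -1.05 ± 0.47 and -0.94 ± 0.48 with overlap. For Kcnma1 the Eln+/+ arrays 1, 2 and 3 were high, at 1.11 to 1.53, and Eln+/+ array 4 was at -0.32. The calcium channel gene Cacna1c was at -0.53 ± 0.33, with Eln+/- array 2 at -2.01.

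**Figure D3:**
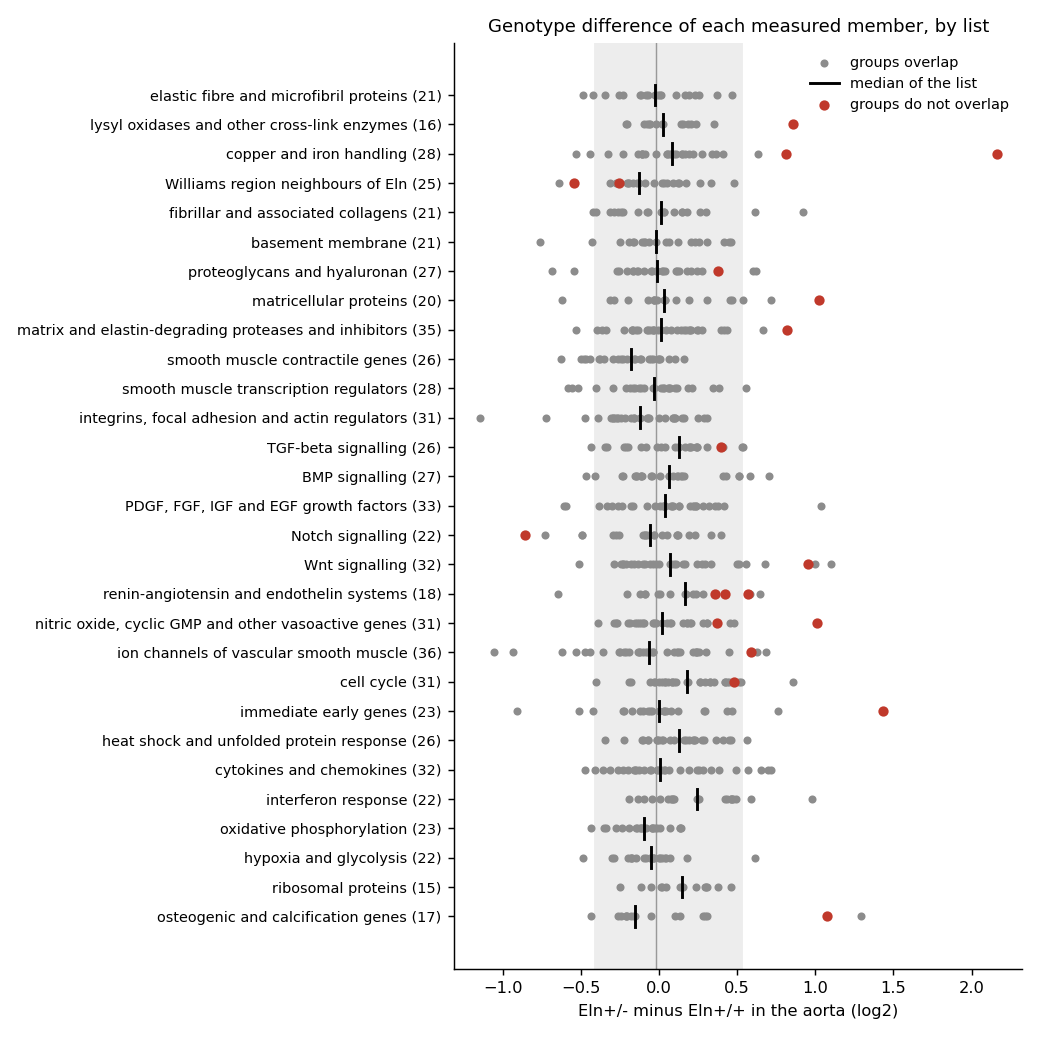
Difference between the genotypes (Eln+/- minus Eln+/+, log2) for each measured member of 29 gene lists, with the number measured in brackets, separate groups in red and the list median as a bar. The grey band runs between the 5th and 95th percentiles of all genes, -0.41 and 0.53, and the list medians lie between -0.18 and 0.25, with all genes at -0.016.

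Notch is a receptor family that neighbouring cells activate through Jagged and Delta ligands and that acts through the Hey genes, and Notch3 is the receptor typical of arterial smooth muscle. Notch3 stood at -0.59, -1.71, -0.51 and -0.43 in Eln+/- and at 0.05, -0.39, 0.04 and 0.50 in Eln+/+. All 4 Eln+/- arrays were lower, array 2 by far the lowest, and the margin to Eln+/+ array 2 was narrow. The difference was -0.86 ± 0.29 (SE), ratio 0.552, with an adjusted p of 0.885 in limma, and -0.56 without Eln+/- array 2. Its other probe set was at -0.70 ± 0.33 with overlap.

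Hey1, a transcriptional repressor gene that Notch induces, stood at -0.999, -1.10, -0.22 and -1.21 in Eln+/- and at -0.45, -0.18, 0.04 and -0.04 in Eln+/+. Eln+/- array 3 was within the Eln+/+ range and the other 3 below it, a difference of -0.73 ± 0.23 (SE). The endothelial ligand gene Dll4 was at -0.49 ± 0.17, and at -0.19 by its other probe set. Other members given for their role were Notch1 at -0.03 ± 0.23, the ligand gene Jag1 at -0.03 ± 0.20, Hey2 at -0.08 ± 0.21 and Heyl at 0.12 ± 0.28, and the highest member was the ligand gene Dll1 at 0.40, named after its value was seen. Over the 22 genes 9 were higher and 13 lower (median -0.06) and 1 separate. Notch3, Hey1 and Dll4 were the 3 of 22 (13.6%) with an unadjusted p under 0.05 in limma, where 5.68% of all genes had one. That share was higher in other lists, 15% for matricellular genes and 23.5% for osteogenic and calcification genes. The Notch median was -0.12 without Eln+/- array 2 and 0.00434 without Eln+/+ array 4. Its sign thus turned without Eln+/+ array 4, and stayed negative without any other single array.

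The Wnt list had 18 of 32 higher, a median of 0.07 and 1 separate member (3.1%, against 2.78% of all genes). That was Axin2, a feedback inhibitor that the pathway itself induces: it stood at -0.16, 0.57, -0.07 and -0.42 in Eln+/- and at -1.21, -1.52, -0.51 and -0.65 in Eln+/+. The difference was 0.95 ± 0.29 (SE), ratio 1.94, but its other probe set was at -0.11 ± 0.18 with overlap, so the probe sets of Axin2 disagreed. The secreted Wnt antagonist genes Sfrp4 and Frzb were at 1.00 ± 0.34 and 1.10 ± 0.40. Both overlapped: Frzb lay between -2.07 and -1.19 on Eln+/+ arrays 1, 2 and 4 and at -0.26 on Eln+/+ array 3, and Sfrp4 was highest on Eln+/- array 2, at 2.52.

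TGF-beta signalling drives matrix production and is raised in several aortic diseases. Of its 26 measured genes 17 were higher, with a median of 0.13. The share with an unadjusted p under 0.05 in limma was 3.85%, against 5.68% of all genes. Separate groups were found in 1 member (3.85%, against 2.78% of all genes). The ligand gene Tgfb3 was that member, at 0.12, 0.25, 0.13 and 0.25 in Eln+/- against -0.28, -0.42, 0.04 and -0.17 in Eln+/+, a difference of 0.40 ± 0.17 (SE). The ligand genes Tgfb1 and Tgfb2 were at 0.13 ± 0.22 and -0.21 ± 0.28, the receptor gene Tgfbr1 at 0.41 ± 0.22 and the signal transducer gene Smad3 at -0.33 ± 0.24. Over all probe sets of these genes the means were 0.15 for Tgfbr1 and -0.0192 for Smad3. In BMP signalling 15 of 27 were higher, with a median of 0.06, and the activin receptor gene Acvr2a was at 0.51 ± 0.18, with its other probe set at -0.00606. Among 33 growth factor and receptor genes 22 were higher, with a median of 0.04, and Fgf7, a fibroblast-derived factor gene, was at 1.04 ± 0.38, with Eln+/- array 2 at 1.63 and the other 3 Eln+/- arrays between -0.13 and 0.09.

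Among genes that set vessel tone, the renin-angiotensin and endothelin list had 12 of 18 higher and a median of 0.17. It held 3 separate members (16.7%, against 2.78% of all genes), all higher. They were Atp6ap2, the prorenin receptor gene, at 0.57 ± 0.17 (SE), the aminopeptidase gene Enpep at 0.42 ± 0.21, and the angiotensin receptor gene Agtr2 at 0.36. Agtr2 was named because of this count and after its value was seen. The unadjusted p in limma was 0.0042 for Atp6ap2, 0.058 for Enpep and 0.077 for Agtr2. For Atp6ap2 the other 2 probe sets were both at 0.02. Enpep was separate because Eln+/+ arrays 1 and 4 were just below the Eln+/- values, and Eln+/+ array 2 alone was far below, at -1.26. The angiotensin receptor gene Agtr1b was at 0.58 ± 0.22 with overlap, Agtr1a at 0.07 ± 0.33, Ace, the converting enzyme gene, at 0.17 ± 0.18 and Agt, the precursor gene, at -0.09 ± 0.17. Among 31 nitric oxide, cyclic GMP and other vasoactive genes 16 were higher, with a median of 0.02 and 2 separate, the peptide receptor gene Calcrl at 1.01 ± 0.32 and the phosphodiesterase gene Pde1a at 0.37 ± 0.22. The other 2 Calcrl probe sets were at 0.18 and -0.33. Nos3, the endothelial nitric oxide synthase gene, was at -0.27 ± 0.23.

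Several lists of cell state stood highest on Eln+/- array 2. Cell cycle genes had 24 of 31 higher, with a median of 0.18, and the list mean was 0.37 on that array against -0.32 to -0.04 on the other 7; without it 18 of 31 were higher. Cdk1, the mitotic kinase gene, was separate at 0.48 ± 0.14 (SE), the replication clamp gene Pcna was at 0.44 ± 0.19 and the proliferation marker gene Mki67 at 0.26 ± 0.37. Interferon response genes had 18 of 22 higher, with a median of 0.25, and 13 of 22 without array 2; Ifit2 was at 0.49 ± 0.22 and Ifit1 at 0.98 ± 0.63. Oxidative phosphorylation genes had 5 of 23 higher, with a median of -0.09, and 1 of 23 with a median of -0.28 without array 2. Their mean was highest on Eln+/+ array 4, at 0.54, and on Eln+/- array 2, at 0.30. These 2 arrays had the highest adipocyte means. On Eln+/+ array 1, next by adipocyte mean (1.34), it was -0.55. On Eln+/+ array 2, lowest by adipocyte mean (-0.72), it was -0.44. Whether the 2 lists are linked was not tested.

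Of the osteogenic and calcification genes, 7 of 17 were higher, with a median of -0.16. Tnfrsf11b, the gene of osteoprotegerin, a decoy receptor that guards arteries against calcification, was separate at 0.06, 2.09, 0.35 and -0.11 in Eln+/- against -0.55, -0.40, -0.50 and -0.47 in Eln+/+. The difference was 1.08 ± 0.39 (SE), with Eln+/- array 2 far above the rest, and its other probe set was at 0.66 with overlap. The phosphatase gene Alpl was at -0.44 ± 0.17 and the homeobox gene Dlx5 at 1.29 ± 0.53. Among hypoxia and glycolysis genes, 7 of 22 were higher with a median of -0.05, and Ndrg1 was at 0.61 ± 0.20 with all 4 other probe sets on the same side.

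Over all 44 function and marker lists, 24 of the 909 distinct measured genes had separate groups (2.64%) and 48 an unadjusted p under 0.05 (5.28%). Both shares are near those of all genes, 2.78% and 5.68%. The share of separate genes in the families chosen for an elastin-deficient aorta was thus near that of any genes on the array.

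Across all genes, the 12 higher and 12 lower genes of lowest p with separate groups came from no single pathway of the lists. On the higher side were Rnf180, a ubiquitin ligase gene, at 1.00 ± 0.19 (SE), Cp, Scaper at 0.86 ± 0.17, Panx1, Ier5, an early response gene, at 1.43 ± 0.31, Dnaaf2 at 0.86, the deubiquitinase gene Usp1 at 0.92, Zfp626 at 0.86, Tbc1d19 at 0.76, the cyclin gene Ccnl2 at 0.81, Taf5, of the general transcription factor TFIID, at 0.70, and the nuclear pore gene Nup62 at 0.77. On the lower side were the nucleotidase gene Entpd7 at -1.23 ± 0.25, Prss50 at -0.50, the zinc finger gene Zfp91 at -1.02, Abhd17a at -1.20, Pllp at -0.48, the splicing factor gene Sf3b2 at -0.95, Mip at -1.99 ± 0.48, 1700082M22Rik at -0.46, Ric3 at -1.31, 4930488L21Rik at -0.69, the metabolic hormone gene Fgf21 at -0.42 and the chromatin regulator gene Arid5b at -0.99 ± 0.28. Their adjusted p in limma was 0.751 to 0.867. These sizes are those of the probe set shown. In each of the 17 genes that have another probe set, the mean over all its probe sets was smaller in size. It was 0.47 for Ier5, -0.23 for Entpd7, -0.22 for Zfp91, -0.21 for Sf3b2 and -0.37 for Abhd17a.

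**Figure D4:**
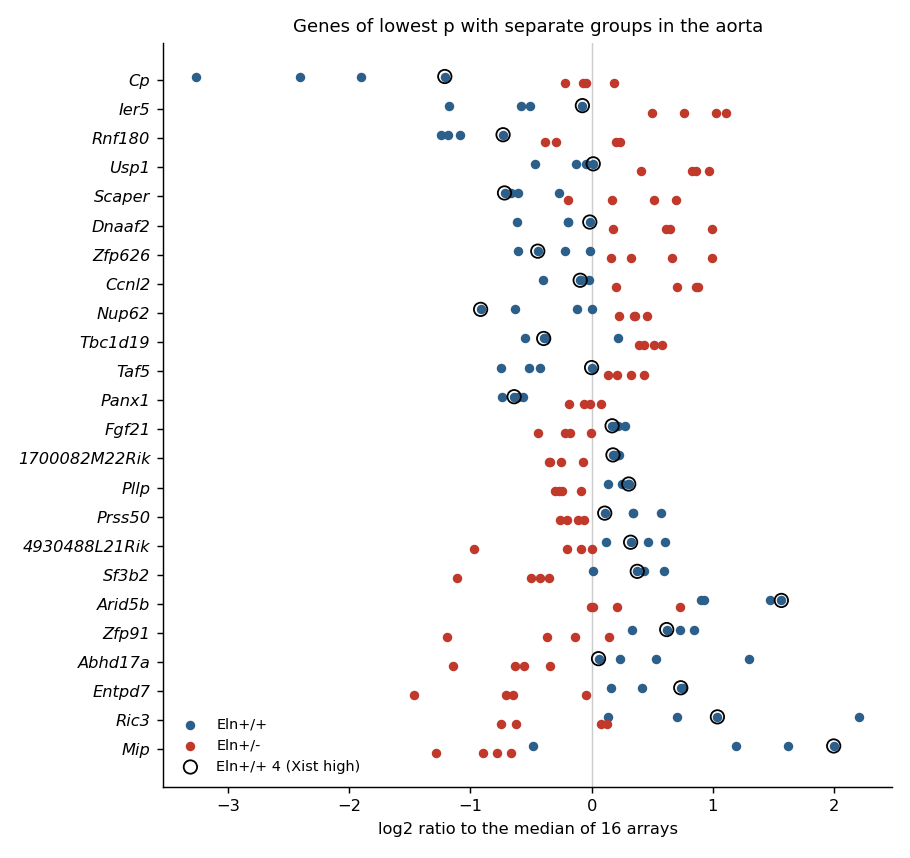
Log2 ratio on each aorta array for the 24 genes of lowest p whose groups do not overlap, with Eln+/+ array 4, the Eln+/+ array with high Xist, ringed. For Cp, Ier5 and Rnf180 the ringed array is the one nearest to the Eln+/- arrays, and for Nup62 it is the farthest from them.

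The other probe sets of these 24 genes come from the same 8 arrays, and so carry the same differences in Xist and of Eln+/- array 2. Of their 44 other probe sets, 31 had the same sign. Among all 506 genes with separate groups 306 of 483 other probe sets did (63.4%), and among all genes 58.3%. All 4 other probe sets of Nup62, all 4 of Arid5b, both of Usp1 and both of Ccnl2 were on the same side. Abhd17a had 0 of 2 on its side, Rnf180 0 of 1, Mip 0 of 1 and Entpd7 1 of 4. The valve arrays entered the spread of the fit that ranked the genes, but not their aorta differences. In them, 11 of the 24 genes differed in the same direction as in the aorta, 45.8%, against 47.4% of all genes. For all 506 separate genes it was 41.5%. Whether an aorta and a valve came from the same mouse is not given, and the valve groups hold the same imbalance in Xist.

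The cell types that a piece of ascending aorta can carry differed from array to array within each genotype. The labelled tissue was borne out by its defining markers only as far as ratios allow, since the table keeps no level: the mean of 10 smooth muscle markers was 0.15 to 0.61 on 7 arrays and -0.58 on Eln+/- array 2. On that array the means of T cell and thymocyte (1.40), macrophage (1.06), B cell (0.81) and adventitial fibroblast (0.75) markers were each the highest of the 8. Heart muscle markers stood at -0.85 on Eln+/- array 3 and -1.07 on Eln+/+ array 2 against -3.70 to -2.80 on the other 6. Myh6, the atrial and ventricular myosin gene, was at -0.73 and -0.65 on these 2 arrays. Adipocyte markers were highest on Eln+/+ array 4 (2.58), Eln+/- array 2 (1.92) and Eln+/+ array 1 (1.34), with Adipoq, the adiponectin gene, at 3.90, 2.71 and 2.25. Erythroid markers were highest on array 2 of each genotype (1.01 and 0.85), with the haem synthesis gene Alas2 at 4.16 and 3.43, as was the neutrophil gene S100a8, at 3.55 and 2.57.

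The marker list with the most members of unadjusted p under 0.05 was that of T cells and thymocytes, with 6 of 18 (background 5.68%), 12 of 18 higher and a median of 0.45. Rag1, the recombinase gene of developing lymphocytes, stood at -0.05, 5.06, 0.68 and 3.15 in Eln+/- and at -0.32, -0.54, 0.15 and 0.09 in Eln+/+. The high values were those of Eln+/- arrays 2 and 4, and of the other 2 Eln+/- arrays, array 1 lay within the Eln+/+ range and array 3 above it. Themis followed the same arrays at 3.49 and 2.71, Cd8a at 1.71 and 1.38, and Lat at 1.74 and 0.79. Not every member did: 6 of the 18 were lower in Eln+/-. Cd3e, named after its values were seen, was at 1.90 on Eln+/- array 2. On Eln+/- array 4 it was at 0.29, within the Eln+/+ range of -0.97 to 0.59. Over all probe sets the mean difference was 0.42 for Themis and 0.46 for Cd8a, against 1.59 and 0.79 as shown. The median of the list was 0.19 without array 2 and -0.0436 without arrays 2 and 4. Macrophage markers had 13 of 19 higher with all arrays and 3 of 19 without array 2, with medians of 0.13 and -0.33. Fcgr1, a macrophage receptor gene, was the 1 separate macrophage marker, at 0.84 ± 0.27 (SE), with its other probe set at 0.08. With the T cell and thymocyte mean of each array as a covariate in the fit, the differences were -0.45 for Notch3, 0.38 for Adamts5, 0.49 for Fgf7, 0.52 for Tnfrsf11b, 0.42 for Sfrp4 and -0.24 for the probe set of Eln shown. They were 0.58 for Panx1, 0.98 for Ccn4 and 0.77 for Axin2, and the smallest adjusted p of that limma fit was 0.997.

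**Figure D5:**
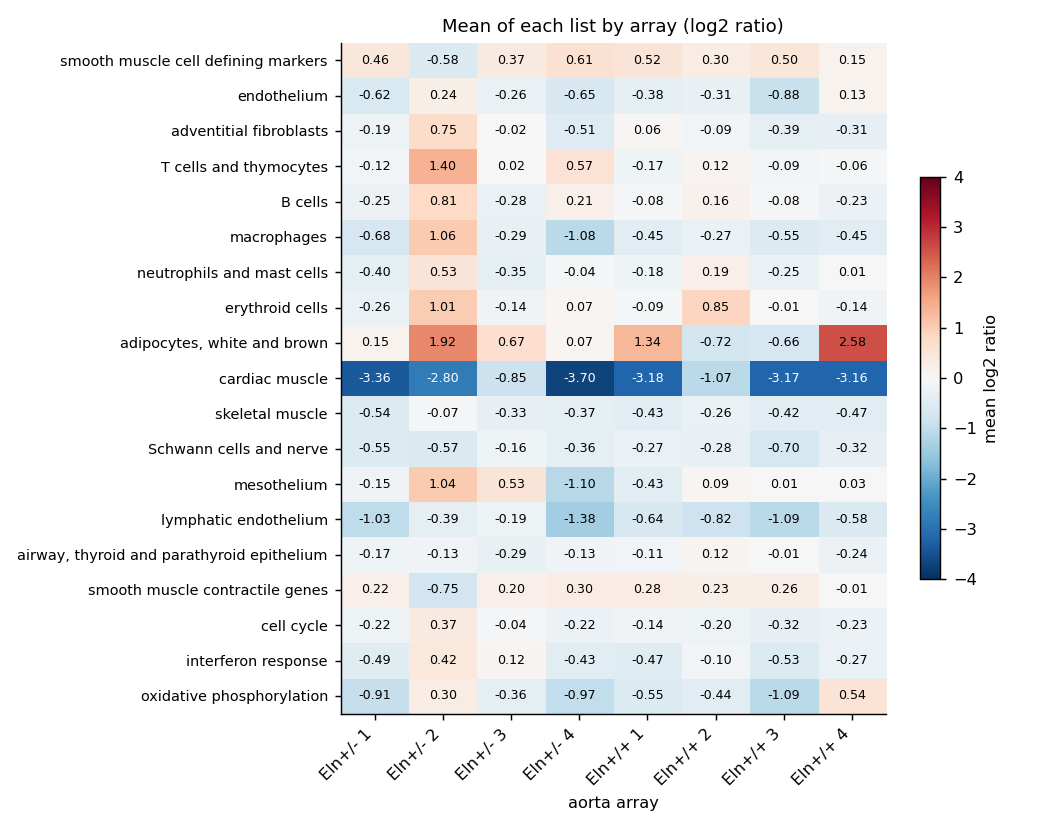
Mean log2 ratio of 15 cell type marker lists and 4 function lists on each aorta array. Eln+/- array 2 has the highest T cell (1.40) and macrophage (1.06) means and the lowest smooth muscle means, and heart muscle markers are least low on Eln+/- array 3 and Eln+/+ array 2.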

How the data were processed

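RNA of 16 specimens was measured on Affymetrix Mouse Genome 430 2.0 arrays. The deposited values are linear ratios: the authors normalized with RMA, per the submitters' processing notes, and each probe set is set to its median over the 16 arrays, as read from the values (the median is 1 in 39827 of 45101 probe sets and below 1 in 5274). This removes the signal level, so dim probe sets could not be filtered and depth is not known; the number of arrays limits the precision. No genome build is given in the sources used here.

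Tests used log2 of the deposited ratios for 45037 probe sets, without the 64 controls. The platform annotation names 1 gene for 34945, several for 932 and none for 9160; 34741 were matched to RefSeq by Entrez identifier. Where a gene has several, that of highest SD stands for it. A limma 3.58.1 model (statmod 1.5.0, R 4.3.3) of 4 tissue and genotype means used every one of the 16 arrays (12 residual degrees of freedom), two-sided, with Benjamini-Hochberg adjustment over all probe sets and a threshold of 0.05; it was tested on simulated data. The 45 lists hold 1032 names, 949 of them measured. The text names Eln, 12 genes in each direction (lowest p among those whose groups are separate), core members of the lists, and up to 3 members of lowest p in each, in part; genes outside this rule are marked. Members, lists and tests were chosen with earlier results of these data known. Alternatives were other normalizations, covariates, sets of arrays and a replicate block. Columns of per-sample values not used: 0.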

Additional observations from a re-analysis of the deposited data

Results flagged for a closer look

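In 27 of 252 groups of a named gene and 11 of 88 groups of a list mean, 1 array lay far from the other 3 of its group by Dixon's criterion; chance marks about 1 in 20 groups. All values are log2 ratios, and the differences were not tested further.

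Eln+/- array 2 was that array in 14 cases. It was low for Eln (-0.64), Emilin1 (-1.20), Loxl1 (-0.32), Col4a1 (-1.02), Col4a2 (-1.55), Cnn1 (-0.70) and Notch3 (-1.71), and for the means of the smooth muscle contractile genes (-0.75) and of integrins, focal adhesion and actin regulators (-0.41). It was high for Ogn (0.98), Adamts5 (1.76), Fgf7 (1.63), Alas2 (4.16) and the ribosomal protein mean (0.38). Eln+/- array 1 was high for Yap1 (0.56) and Agt (0.21). Eln+/- array 4 was low for Fbln1 (-1.54) and Col8a1 (-1.97) and high for Col1a2 (0.90).

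Eln+/+ array 4 stood alone for Xist (0.10), Eif2s3y (-0.29), Kdm5d (-0.67) and Uty (-0.72), and for the means of fibrillar collagens (-0.42) and of hypoxia and glycolysis genes (0.17). Eln+/+ array 2 stood alone for Enpep (-1.26), Alas2 (3.43) and the means of integrins and actin regulators (0.29), erythroid cells (0.85) and cardiac muscle (-1.07). Eln+/+ array 3 stood alone for Lox (0.13), Mgp (0.00137), Mmp2 (0.0568), Jag1 (0.38) and the Schwann cell mean (-0.70). Eln+/+ array 1 stood alone for Dnajc30 (-0.27) and the means of smooth muscle transcription regulators (-0.16) and mesothelium (-0.43).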

How the results depend on the processing

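The absence of calls held under 17 of 20 alternatives: 0 probe sets passed in limma, of 45037 tested or, without those whose median is below 1, of 39780, and the smallest adjusted p ran from 0.0256 to 1.00 over the alternatives. With the aorta arrays of high Xist alone (4 against 1, so that the lone Eln+/+ array is assumed to vary like the other groups) 7 probe sets passed. Leaving out 1 array at a time gave 0 to 1 past the threshold, 1 without Eln+/+ array 3 and 1 without Eln+/+ array 4. Eln was lower under all 20 alternatives, with differences of -0.64 to -0.24 and, at its other probe set, -0.29 to -0.13; leaving out 1 array gave -0.51 to -0.25 and -0.25 to -0.16. The median of the elastic fibre list, -0.02, became 0.10 with the T cell and thymocyte mean as a covariate, 0.14 with the Xist and Y-linked signal as one, 0.0796 on the arrays of high Xist and 0.0891 without Eln+/- arrays 2 and 4. The Notch median, -0.06, became -0.17 with the Xist and Y-linked covariate and -0.13 on the arrays of high Xist, and 0.00434 without Eln+/+ array 4; the causes were not tested. On the arrays of high Xist the differences turned to 0.13 for Kcnma1, -0.0443 for Xist, 0.22 for Eif2s3y and 0.17 for Kdm5d, and with the covariate to 0.20 for Eif2s3y and 0.0291 for Kdm5d. Uty turned to 0.0735 with that covariate, and Cd8a to -0.00308 without Eln+/- arrays 2 and 4. These were the named genes of an unadjusted p under 0.05 whose sign turned under an alternative. The 24 separate genes named from the whole array were chosen for groups that do not overlap. Leaving out arrays could therefore not turn their sign, and 0 of the 24 turned under any alternative. Core members given as levels were compared by size, and over all named genes 20 values moved by more than the spread between arrays. The fit of aorta arrays alone without Eln+/- array 2 was chosen after seeing the data. With the replicate number as a block, 0 probe sets passed (smallest adjusted p 0.992 in limma; 1774 at an unadjusted p under 0.05). Same-numbered Eln+/- and Eln+/+ aorta arrays did not deviate together (correlations 0.00099, -0.0092, -0.14 and -0.15). With so few arrays such correlations cannot decide whether the numbers pair the samples. Without signal levels, dim probe sets cannot be told from bright ones, and 4 arrays a group limit the precision.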
